A study of Homo sapiens with 6 samples.

Results

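Divergent gene pairs overlapping at their starts are pairs of genes on opposite strands that point away from each other and share exon sequence around their start sites. From the gene models of the deposited tables, a pair was taken where a plus-strand and a minus-strand gene shared at least 1 bp of exon, where neither shared exon with any other gene on the opposite strand, where the minus gene both began and ended before the plus gene, and where the pair held at least 60 counts over the 6 libraries. This gave 616 divergent pairs, or 1232 genes, of 2004 plus-minus pairs of any arrangement with that many counts, the others being 649 convergent pairs, which overlap at their ends, and 739 nested pairs. The cells were MB157, a human cell line from triple-negative breast cancer, and their total RNA was made into 3 libraries for a control sgRNA and 3 for an sgRNA that targets SOX9, whose product binds DNA through an HMG box. The sample titles name MB157-Cas9 cells for both groups, while the series description says that the cells stably expressed SOX9. The guides acted for 4 days, and the 50% of cells with the most sgRNA were collected by flow sorting. The labels call the replicates technical, so p-values measure the spread between libraries and not between independent cultures.

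Many human genes begin close to a gene on the other strand. Their shared start region, a bidirectional promoter, is often rich in CpG dinucleotides and lacks a TATA box. RNA polymerase II also starts in the upstream direction at many promoters and makes short antisense or divergent transcripts, most of which are degraded early. Where the first exons of both genes overlap, only the strand of a fragment says which gene it came from, and the counting by the authors gave a fragment to the gene on the strand of its first read. The labels name version 2 of the SMARTer Stranded Pico Input kit, whose first read is, as background, the complement of the RNA and which is usually counted with the reverse setting. For such a library the setting used gives a fragment to the gene opposite the one it came from. Whether that holds for these libraries was not tested, so every value below is a count assigned to a gene, and the gene that a count came from, and with it which of the genes in a pair changed, is in doubt.

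Start regions of 5 genes are printed because the results turn on their pairs: GABRP, TMEM139-AS1 and HSPA1A for the size of their changes, FAM216A for its change in strand share, and SLC25A5 for its counts. Each is RefSeq sequence of GRCh38.p14, 250 bases before to 50 after the listed start, 5′ to 3′ on the strand of the gene, so that the start is base 251. Capitals mark, on either strand, the letters CCAAT of a CCAAT box, TATAAA of a TATA box, CACGTG of an E-box, the NRF1 motif and AACAAT, a core bound by SOX proteins. GABRP is at chr5:170783475-170783774 (+), TMEM139-AS1 at chr7:143286285-143286584 (-), FAM216A at chr12:110468595-110468894 (+), HSPA1A at chr6:31815293-31815592 (+) and SLC25A5 at chrX:119468194-119468493 (+). These coordinates are not those of the gene models used for counting, which are on GRCh37.
GABRP: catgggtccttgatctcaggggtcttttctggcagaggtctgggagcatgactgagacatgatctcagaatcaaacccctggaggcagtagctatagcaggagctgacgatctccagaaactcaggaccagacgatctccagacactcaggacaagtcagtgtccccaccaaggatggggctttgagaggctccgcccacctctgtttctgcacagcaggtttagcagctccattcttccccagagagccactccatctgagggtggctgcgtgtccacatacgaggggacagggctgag
TMEM139-AS1: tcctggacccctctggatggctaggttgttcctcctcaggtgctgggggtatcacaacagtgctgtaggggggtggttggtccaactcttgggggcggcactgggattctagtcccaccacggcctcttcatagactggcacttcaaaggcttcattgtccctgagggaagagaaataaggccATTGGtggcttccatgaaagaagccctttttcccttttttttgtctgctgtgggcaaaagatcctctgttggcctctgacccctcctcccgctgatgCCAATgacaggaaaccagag
FAM216A: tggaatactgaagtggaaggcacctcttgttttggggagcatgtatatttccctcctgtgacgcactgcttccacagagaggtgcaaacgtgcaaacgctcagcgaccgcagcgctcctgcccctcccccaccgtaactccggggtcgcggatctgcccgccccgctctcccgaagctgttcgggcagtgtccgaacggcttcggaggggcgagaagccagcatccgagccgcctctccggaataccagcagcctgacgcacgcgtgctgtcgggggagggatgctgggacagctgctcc
HSPA1A: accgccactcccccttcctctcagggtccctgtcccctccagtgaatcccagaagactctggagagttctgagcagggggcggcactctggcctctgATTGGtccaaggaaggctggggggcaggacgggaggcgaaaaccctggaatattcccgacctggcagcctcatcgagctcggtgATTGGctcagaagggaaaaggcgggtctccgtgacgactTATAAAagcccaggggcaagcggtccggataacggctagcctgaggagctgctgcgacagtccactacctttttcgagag
SLC25A5: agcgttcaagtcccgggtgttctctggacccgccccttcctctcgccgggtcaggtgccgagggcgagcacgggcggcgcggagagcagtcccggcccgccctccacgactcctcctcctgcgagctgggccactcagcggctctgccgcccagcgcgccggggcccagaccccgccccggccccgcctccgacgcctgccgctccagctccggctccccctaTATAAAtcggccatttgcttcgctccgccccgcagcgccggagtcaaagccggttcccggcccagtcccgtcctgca
None of the searched letters but GGAA stands in the GABRP and FAM216A windows. The start of GPN3, the partner of FAM216A, lies at base 127 of the FAM216A window, and a start of SLC25A5-AS1 at base 69 of the SLC25A5 window. Other windows do not hold the partner's start. That of TMEM139 lies 1435 bases after the TMEM139-AS1 start, and that of HSPA1L 260 bases before the HSPA1A start. No partner start was looked up for GABRP. The TMEM139-AS1 window holds CCAAT at base 281 and, read on the other strand, at base 184. The HSPA1A window holds CCAAT, read on the other strand, at bases 98 and 182 and TATAAA at base 221, and SLC25A5 has TATAAA at base 224.

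RefSeq windows of this kind were found for 897 of the 1232 genes. In 364 pairs both genes had a window, and in 152 of these pairs the windows overlapped. By the first listed RefSeq starts, the minus gene began before the plus gene in 213 of the 364 pairs. By those starts such genes do not overlap, unlike in the gene models used for counting. The letters below refer to the windows of the 897 genes. The letters TATAAA stood in 5.35% of these windows, against 11.95% of all 27305 windows and 9.63% of the 15843 windows of protein-coding genes. The NRF1 motif stood in 11.7% of them, against 6.29% and 8.58%, and the E-box letters in 9.25% against 7.44% and 8.88%. The SOX core stood in 5.24% against 10.35% and 7.06%. The CCAAT letters were found in 34.1% against 35.7% and 36.4%, and GGAA, an ETS core, in 95.65% against 95.5% and 95.1%. The members' windows had a median of 26 CpG and 65.3% G and C, against 14 and 58.3% over all windows and 22 and 62.7% over protein-coding ones, so the shares of letters are set beside windows of another base composition. A match of letters is a description of the sequence. No binding was measured.

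Library totals ran from 776125 to 1018854 counts, and control libraries detected 18326 to 18818 genes against 20207 to 21082 with the SOX9 sgRNA. SOX9 itself had 38, 52 and 44 counts in the control libraries and 37, 39 and 60 with the SOX9 sgRNA, a log2 fold change of -0.22 (SE 0.26, edgeR quasi-likelihood adjusted p = 0.70), so its counts overlapped between the groups. The epithelial markers EPCAM and KRT8 had 31 to 68 and 371 to 558 counts per library. CDH1 had 22 to 37, while the gene opposite it had 885 to 1405, and KRT7 had 25 to 53 against 738 to 1388 on the 2 genes opposite it together. The receptor genes ESR1 and PGR had at most 7 counts, but ERBB2 had 141 to 213. Of the markers of other cell types, CD3E and VWF were at 0, PTPRC had at most 1, COL1A2 and PDGFRB at most 2, and COL1A1 2 to 7 counts; PECAM1 was not analysed here.

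The 616 divergent pairs held 462268 counts, 9.02% of all counts. Of these pairs 265 joined protein-coding genes, 331 a protein-coding and a noncoding gene, and 20 noncoding genes. The shared exon sequence had a median of 197.5 bp and ran from 1 to 1706 bp. Counts lay mostly on 1 gene of a pair: over all pairs the gene with more counts held a median of 88.3% of them. In 278 pairs (45.1%) it held over 90%, and in 59 pairs (9.58%) each gene held between 40% and 60%. The plus gene held a median of 50.4%.

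In the 331 pairs of a coding and a noncoding gene, the coding gene held a median of 27.2% of the counts, and the middle of the distribution was wide, with quartiles at 7.86% and 75.4%. It had most of the counts in 125 pairs of 331. In convergent pairs the median was 13.1%, with most counts on the coding gene in 55 of 262 (21.0%), and in nested pairs it was 14.2%, with 134 of 634 (21.1%). Divergent pairs had the highest median in each of the 6 libraries, while convergent and nested pairs changed places between libraries: medians ran from 23.6% to 31.0% in divergent pairs, from 10.8% to 13.8% in convergent pairs and from 12.8% to 14.9% in nested pairs. Pairs of 1 library are not replicates, so the difference between arrangements has no test. If fragments were assigned to the gene opposite, the same counts would put the medians on the strand of the coding gene at 72.8% in divergent, 86.9% in convergent and 85.8% in nested pairs, and divergent pairs would have the lowest. These turned values cover only the fragments listed for either gene, since those of exons not shared would need to be counted again. The noncoding gene had less exon sequence in 309 of the 331 pairs, and per kb of exon the coding gene held a median of 7.23%, against 3.35% in convergent and 1.64% in nested pairs. The share also fell with the summed counts asked of a pair, from 32.7% in controls at a minimum of 30 to 16.7% at 120.

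**Figure D1:**
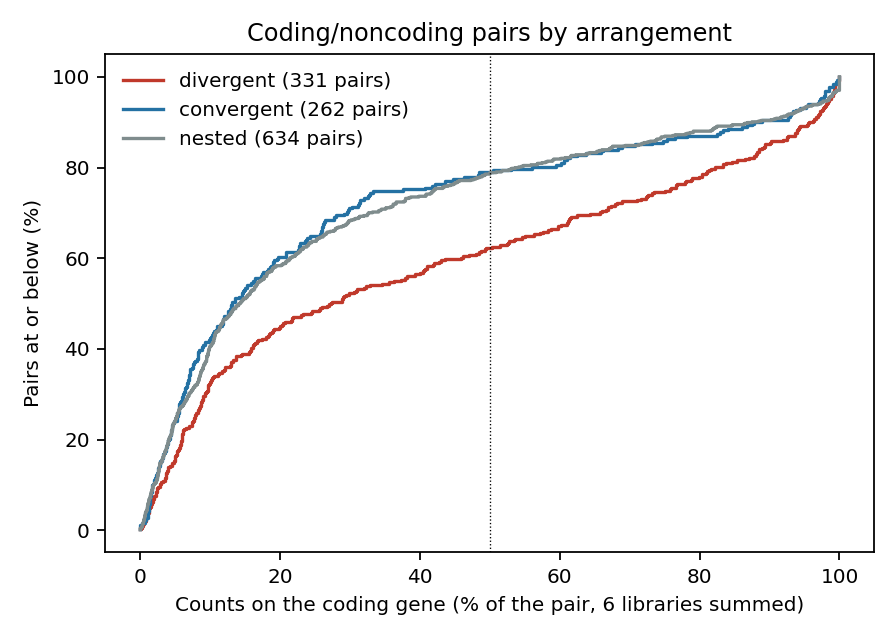
Share of pairs (y axis, %) whose coding gene held at most the given share of the pair's counts (x axis, %, 6 libraries summed), for 331 divergent, 262 convergent and 634 nested pairs of a coding and a noncoding gene. The divergent curve lies below the other lines over most of the range, and the dotted line at equal counts leaves 125 divergent pairs to its right.

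The share on the coding gene was lower where the genes shared more exon. In pairs sharing 1 to 99 bp the median was 45.9% (83 pairs), with 100 to 178 bp it was 29.0% (86 pairs), with 179 to 301 bp 21.7% (79 pairs) and with 302 to 1706 bp 16.3% (83 pairs). The counts of the noncoding genes differed most along this order, with medians of 64, 123.5, 201 and 332. Those of the coding genes were 69, 61.5, 77 and 87. Across the 331 pairs Spearman's rho between shared bases and share was -0.19, a weak relation across pairs that come from the same libraries. With the assignment turned, the medians on the strand of the coding gene would be 54.1%, 71.0%, 78.3% and 83.7%, rising with the shared bases.

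**Figure D2:**
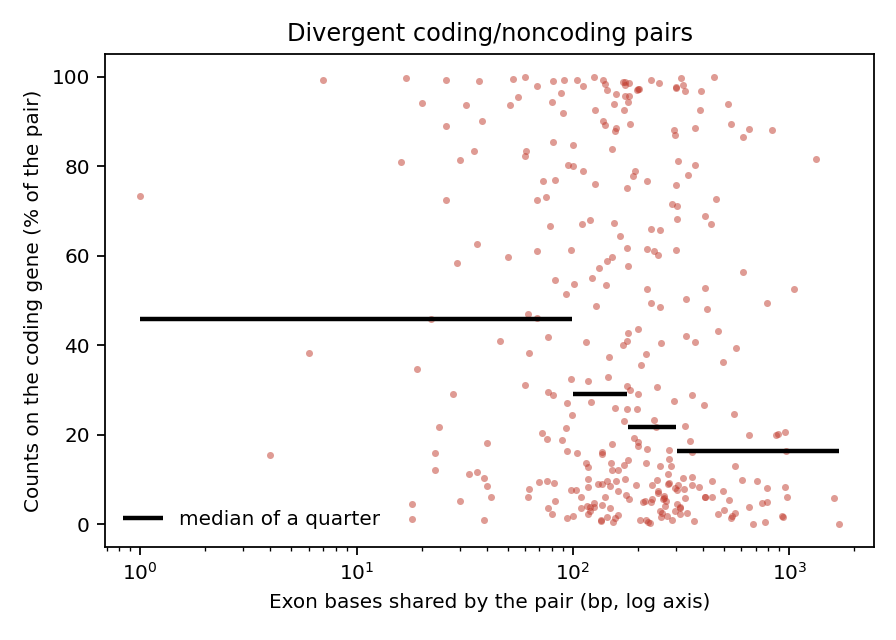
Each point is 1 of 331 divergent coding/noncoding pairs, with the shared exon bases on a log axis (bp) and the share of its counts on the coding gene (%). Black lines give the medians of the 4 ranges of shared bases, which fall from 45.9% to 16.3%, while single pairs spread widely within each range.

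Strand shares were then compared between the groups, over libraries. In control libraries the median share on the coding gene was 25.8%, 23.6% and 25.9% (mean 25.1% ± 1.29, SD, n = 3), and with the SOX9 sgRNA it was 29.1%, 25.0% and 31.0% (28.4% ± 3.08, SD, n = 3). SOX9 sgRNA library 2 lay within the control range, and the difference of 3.27 percentage points had an exact two-sided permutation p of 0.3, where 3 against 3 libraries cannot give less than 0.1. The median share of the gene with more counts was 89.2% ± 0.695 in controls and 88.2% ± 0.611 with the SOX9 sgRNA (SD, n = 3 each; exact permutation p = 0.2).

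Of the 1232 genes, 800 had enough counts to be tested, both genes in 232 pairs, 1 gene in 336 and none in 48. With the SOX9 sgRNA 19 genes rose (2.38%, against 2.99% of all 7959 genes tested) and 78 fell (9.75%, against 6.02%), by edgeR at an adjusted p under 0.05. Either way 97 of the 800 tested members were called, beside 717 (9.01%) of all 7959 genes tested. The split depends on scaling: scaled by library totals instead of TMM factors, 50 genes rose and 32 fell, and those 32 were all among the 78. This scaling moved the median change over all tested genes from 0.01 to 0.19 (log2). The share of all tested genes called with it is not given here, so 50 and 32 stand without a background. All 19 rises were called both ways. The median change of the tested members was -0.06 beside 0.01 for all genes. In 219 members (27.4%) the groups did not overlap, beside 24.5% of all genes. Changes of at least 2-fold were found for 8 of the rises and 20 of the falls. The matching shares of all tested genes are not given here, so these counts are not read as a trait of the members.

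By kind of gene, 38 of 219 tested noncoding genes opposite a coding gene fell and 11 rose, while of the 187 coding genes in such pairs 13 fell and 0 rose. Among the 371 tested genes of coding/coding pairs 25 fell and 5 rose, and among the 23 of noncoding pairs 2 fell and 3 rose. The gene with more counts supplied most of the calls, 69 falls and 18 rises of 567 tested, where the gene with fewer had 9 and 1 of 233. Over all 7959 genes tested, of any kind, 6.02% fell and 2.99% rose. The shares over all tested noncoding or all tested coding genes are not given here, so these counts are not read as a trait of either kind. Counts set how small a change can be called, and the difference between these classes was not tested.

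The largest fall was at GABRP, a GABA-A receptor subunit gene, on GRCh37 chr5:170190354-170241051. Its partner ENSG00000253348, an antisense RNA at chr5:170174051-170215654 that shares 77 bp of exon with it, had 633, 605 and 573 counts in the control libraries and 6, 16 and 22 with the SOX9 sgRNA. In TMM-scaled CPM, counts relative to the library's total, this was 812 ± 39.7 against 16.5 ± 8.02 (SD, n = 3), a log2 fold change of -5.59 (SE 0.165, adjusted p = 6.26e-41). GABRP went from 18, 21 and 22 counts to 3, 4 and 2, a log2 fold change of -2.93 (SE 0.576, adjusted p = 0.000132). Neither gene's groups came near to overlapping.

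Both genes fell in 4 further pairs, of which 3 are described. SERTAD4, a SERTA-domain gene, had 17, 22 and 15 counts in controls and 7, 2 and 7 with the SOX9 sgRNA (log2 fold change -1.97, adjusted p = 0.00893), and SERTAD4-AS1 had 153, 142 and 161 against 44, 58 and 64 (-1.69, adjusted p = 1.64e-11). The SERTAD4 call was lost without control library 2 (-1.86) or SOX9 sgRNA library 2 (-1.66). ITGB8, the integrin beta 8 subunit, which forms a receptor that activates latent TGF-beta, had 16, 41 and 14 counts against 11, 11 and 7, and ITGB8-AS1 had 45, 74 and 41 against 12, 14 and 23. Control library 2 was the highest for both. The log2 fold changes were -1.48 (adjusted p = 0.0182) and -1.93 (adjusted p = 2.79e-06), and the ITGB8 call was lost without control library 2 (-0.89) or SOX9 sgRNA library 3 (-1.19). A pair of coding genes, ATRAID and SLC5A6, is named after its values were seen. ATRAID fell by 0.87 (adjusted p = 0.0356) and SLC5A6, a vitamin transporter gene, fell by 0.66 (adjusted p = 5.86e-05). The ATRAID call was lost without control 2 (-0.82), control 3 (-0.82), SOX9 sgRNA 1 (-0.74) or SOX9 sgRNA 2 (-0.76), and also with library totals (-0.69), with DESeq2 (-0.88) and with no filter on low counts (-0.90). DESeq2 did not call ITGB8 either.

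Both genes rose at 1 pair, HSPA1A and HSPA1L, heat shock protein 70 genes of the MHC class III region (HSPA1L at GRCh37 chr6:31777396-31783437, HSPA1A at chr6:31783291-31785723, 80 bp of exon shared). HSPA1L had 237, 226 and 233 counts in control libraries and 576, 486 and 555 with the SOX9 sgRNA, or 313 ± 24.2 against 622 ± 77.2 CPM (SD, n = 3). The groups did not overlap, and the log2 fold change was 0.99 (SE 0.105, adjusted p = 1.39e-11). HSPA1A, the stress-inducible gene, had 15, 8 and 4 against 37, 23 and 41 counts (1.65, SE 0.397, adjusted p = 0.00225). A near-identical copy of HSPA1A lies close by, so its counts are uncertain.

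**Figure D3:**
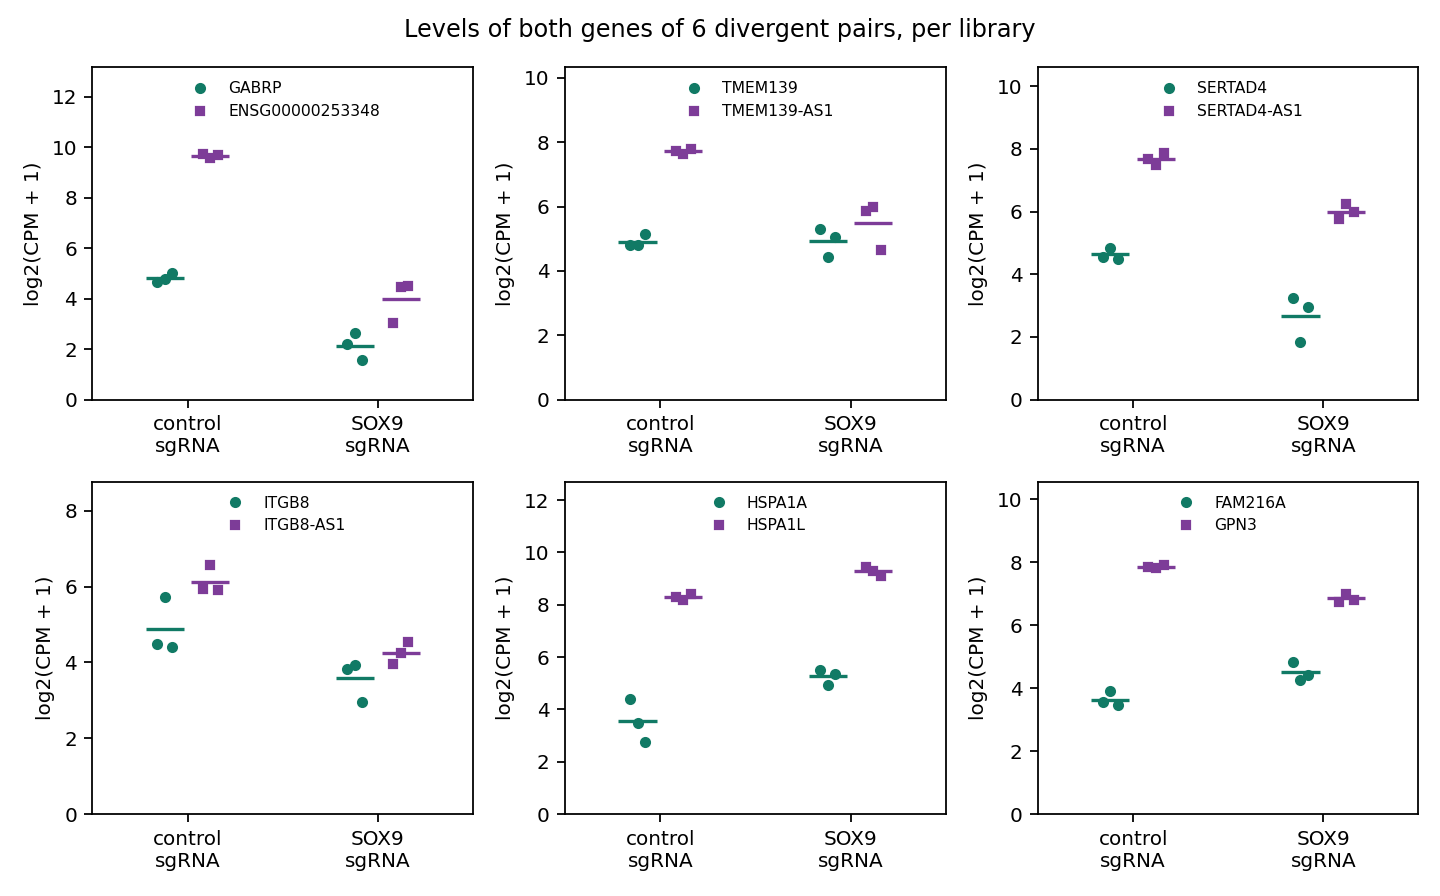
Levels per library, as log2(CPM + 1), of both genes of 6 divergent pairs in the control and SOX9 sgRNA libraries; circles are plus-strand genes, squares minus-strand genes, and bars the means of 3 libraries. ENSG00000253348 goes from a mean of 812 to 16.5 CPM, HSPA1A and HSPA1L are higher with the SOX9 sgRNA, and TMEM139 keeps overlapping groups while TMEM139-AS1 falls.

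In other pairs with a large fall, 1 gene was called. TMEM139-AS1 went from 158, 155 and 152 counts to 47, 48 and 25 (log2 fold change -2.16, adjusted p = 1.57e-13), while TMEM139, a gene for a membrane protein, had 20, 21 and 24 against 32, 16 and 33 (0.07, adjusted p = 0.94). ENSG00000227220, opposite CCN2, the connective tissue growth factor gene, had 167, 141 and 116 counts against 39, 60 and 75, with no overlap (-1.52, adjusted p = 2.23e-09), and CCN2 itself had 8, 14 and 9 against 11, 10 and 5. HK2, hexokinase 2, which catalyses the first step of glycolysis, had 41, 29 and 33 counts against 15, 8 and 19 (-1.54, adjusted p = 0.00113), and HK2-DT, with which it shares 7 bp of exon, had 1 count over all 6 libraries together. ENSG00000227757, opposite the transcription factor gene OLIG1, fell by 1.95 on the log2 scale (adjusted p = 0.00113), a call lost without control library 1 (-1.62); OLIG1 changed by -1.27 (adjusted p = 0.10). HOMER3-AS1 fell by 1.72 (adjusted p = 0.0139), a call lost without control library 2 (-1.50), and HOMER3, a synaptic scaffold gene, changed by -0.35 (adjusted p = 0.60).

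Rises of 1 gene were mostly at few counts. HLX-AS1, opposite the homeobox gene HLX, had 9, 9 and 2 counts in controls and 33, 27 and 31 with the SOX9 sgRNA (log2 fold change 1.95, adjusted p = 0.000827), while HLX had 8, 4 and 4 against 1, 9 and 16 and was not tested. ENSG00000236886, opposite IGFBP5, a binding protein of insulin-like growth factors, had 37, 40 and 42 against 96, 95 and 95 (1.04, adjusted p = 0.000434), and IGFBP5 had 1 count in the controls together and 11 with the SOX9 sgRNA, too few to test. These groups did not overlap for HLX-AS1 and ENSG00000236886, and both calls held without any single library. FAM81A rose by 1.35 (adjusted p = 0.00934), while MYO1E, an unconventional myosin gene opposite it, changed by -0.03. The FAM81A call was lost without control library 2 (1.12).

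The other named rises were ENSG00000251196 (1.40), ENSG00000214614 (1.20), ARHGEF7-AS2 (1.19), ENSG00000253715 opposite LY6D (1.08) and ENSG00000272066 opposite POU3F4 (0.85), with adjusted p between 0.0108 and 0.0308. Each of them lost its call without at least 2 of the single libraries. ENSG00000251196 did so without control 1 (1.18), SOX9 sgRNA 1 (1.14) or SOX9 sgRNA 2 (1.41), and ENSG00000214614 without control 1 (0.82), control 2 (1.19), SOX9 sgRNA 1 (1.06) or SOX9 sgRNA 3 (1.15). ARHGEF7-AS2 did so without control 1 (1.09), control 3 (1.14) or SOX9 sgRNA 2 (0.81), and ENSG00000253715 without control 1 (0.90) or SOX9 sgRNA 2 (0.96). For ENSG00000272066 it was control 1 (0.80), 2 (0.89) or 3 (0.83), or SOX9 sgRNA 2 (0.69). Of these genes ENSG00000253715 alone was also called by DESeq2 and with no filter on low counts.

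Where both genes of a pair were tested, they changed with the same sign in 130 of 232 pairs. Across these pairs the log2 fold changes of partners had a Pearson r of 0.45, or 0.32 without the GABRP pair, and a Spearman rho of 0.24. Pairs share libraries and scaling, and these values are a description. Of the 60 such pairs with at least 1 gene called, 41 had the same sign, and in 6 both genes were called.

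**Figure D4:**
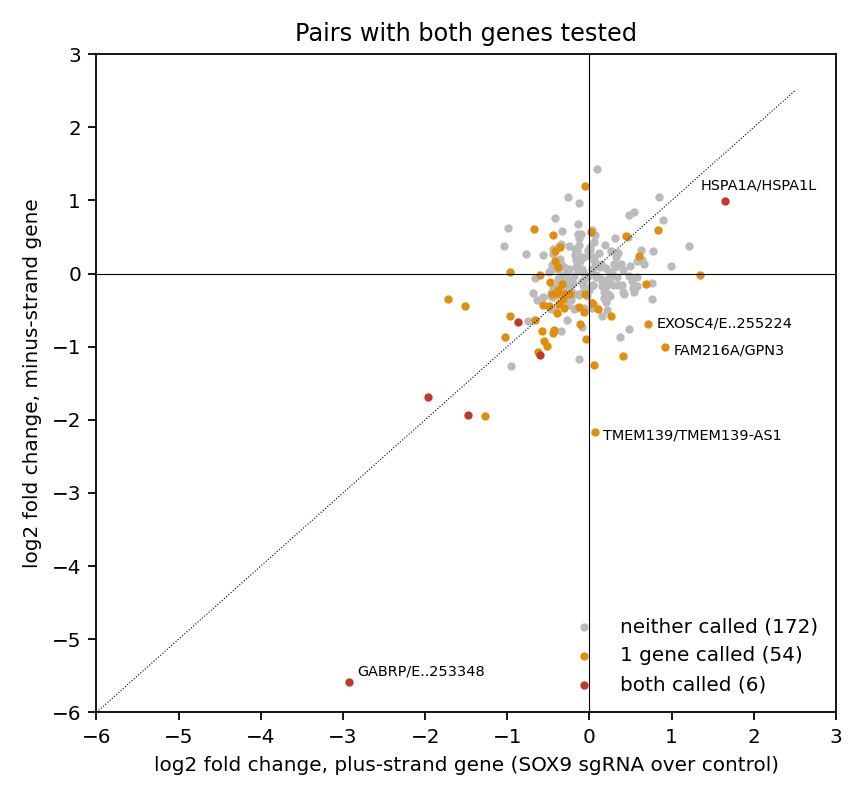
Log2 fold change (SOX9 sgRNA over control) of the plus-strand gene (x axis) against that of the minus-strand gene (y axis) for the 232 divergent pairs with both genes tested; the dotted line marks equal change. Most pairs lie near 0, 6 pairs have both genes called, and the GABRP pair lies far from the rest.

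The change in the ratio of plus to minus counts was tested in 607 pairs, since 9 had a strand with 0 counts. The ratio changed in 3 pairs (0.494%, against 0.357% of all 1961 pairs of any arrangement). At an unadjusted p under 0.05 the numbers were 38 pairs (6.26%) against 7.50% of all pairs. The typical precision was low, with a median SE of 0.76 on the log2 scale.

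TMEM139 took 11.2%, 11.9% and 13.6% of its pair's counts in the controls and 40.5%, 25.0% and 56.9% with the SOX9 sgRNA, and the groups did not overlap. The exact 95% intervals of the single libraries reached 19.6% at most in the controls and 15.0% at least in SOX9 sgRNA library 2; they cover counting error only. The log2 ratio changed by 2.27 (SE 0.462, adjusted p = 0.0024), and without SOX9 sgRNA library 3 by 1.82 (adjusted p = 0.119). GPN3 encodes a GTPase of the family that carries RNA polymerase II to the nucleus. It had 173, 176 and 166 counts in controls and 88, 98 and 114 with the SOX9 sgRNA (log2 fold change -1.01, adjusted p = 5.38e-07), while FAM216A had 8, 11 and 7 against 23, 14 and 21 (0.92, adjusted p = 0.24). Their log2 ratio changed by 1.93 (SE 0.486, adjusted p = 0.0298), a call lost without control library 1 (1.87), control library 3 (1.82), SOX9 sgRNA library 1 (1.69) or SOX9 sgRNA library 3 (1.96).

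EXOSC4, a subunit of the RNA exosome, which degrades RNA from its 3′ end, had 36, 27 and 17 counts in controls and 43, 46 and 66 with the SOX9 sgRNA. The antisense ENSG00000255224 had 358, 370 and 350 against 229, 280 and 272 and fell (log2 fold change -0.69, adjusted p = 3.06e-06), whereas EXOSC4 alone did not pass (0.71, adjusted p = 0.12). EXOSC4 thus took 9.14%, 6.80% and 4.63% of the pair in controls and 15.8%, 14.1% and 19.5% with the SOX9 sgRNA, without overlap. The log2 ratio changed by 1.42 (SE 0.334, adjusted p = 0.0102), a call lost without control library 3 (1.19), SOX9 sgRNA library 1 (1.46) or SOX9 sgRNA library 3 (1.26). For GABRP the ratio changed by 2.67 (SE 0.731), which did not pass (adjusted p = 0.0607), on 3, 4 and 2 GABRP counts in the SOX9 sgRNA libraries.

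**Figure D5:**
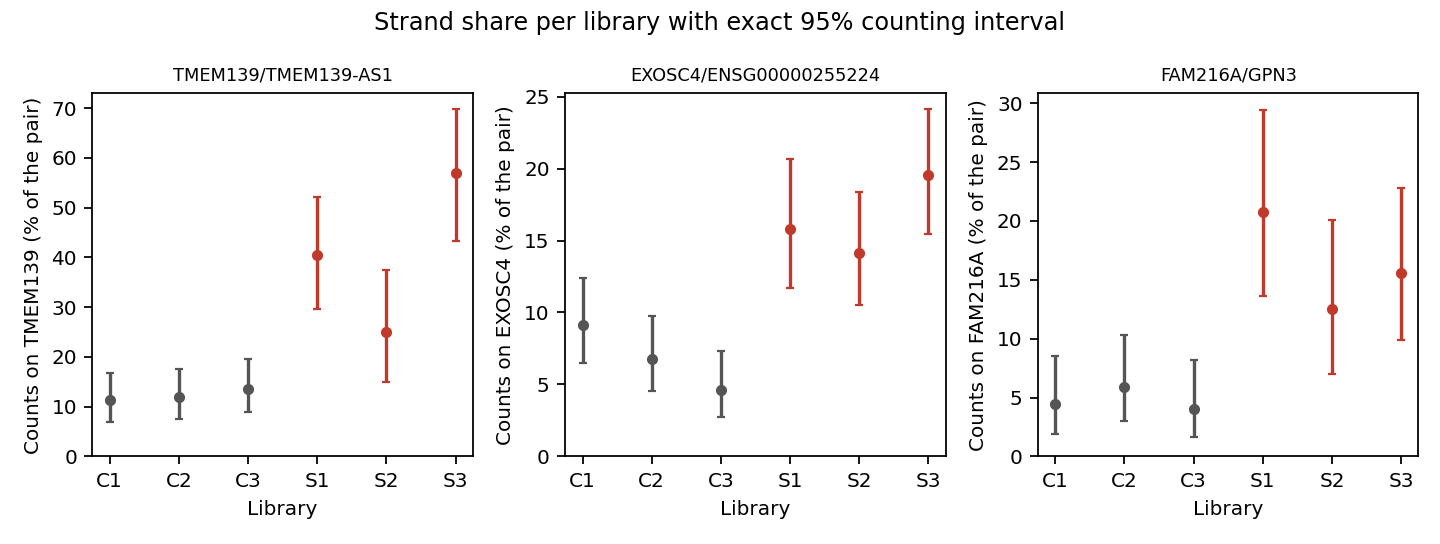
Share of a pair's counts on the plus-strand gene (y axis, %) in control libraries C1 to C3 (grey) and SOX9 sgRNA libraries S1 to S3 (red), with exact 95% counting intervals, for the 3 divergent pairs past the threshold of the ratio test. All SOX9 sgRNA libraries lie above all controls, and the spread among them is widest for TMEM139, from 25.0% to 56.9%.

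The 10 pairs with the most counts were lopsided. SLC25A5, the mitochondrial ADP/ATP carrier, had 37 counts in all libraries together and SLC25A5-AS1 had 17117; TMED2, a cargo receptor of the secretory pathway, had 170 and TMED2-DT 16723. ENO3, the enolase of muscle, had 16166, while PFN1, the actin-binding profilin opposite it, had 113. PCBP1, which binds poly(C) RNA, had 797 and PCBP1-AS1 10022; TMPO, a lamina-associated protein gene, had 885 and TMPO-AS1 8241. The pseudogene ENSG00000271581 had 8334 counts and HLA-B, an antigen-presenting MHC class I gene with near-identical relatives, 161. H2AZ1-DT had 6692 against 26 for the histone gene H2AZ1, JSRP1, a gene of the junctional sarcoplasmic reticulum, 6251 against 49 for OAZ1, the antizyme of ornithine decarboxylase, and GDF9, an oocyte growth factor gene, 6070 against 20 for the complex III subunit gene UQCRQ. PTMA, prothymosin alpha, was the 1 coding gene facing a noncoding gene that held most counts of its pair here, with 6483 against 23. PTMA shares 17 bp of exon with its partner ENSG00000269363, which had no biotype and was called noncoding for that reason.

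In these 10 pairs the gene with more counts fell in 9, with log2 fold changes from -0.72 (PTMA) to -0.27 (PCBP1-AS1), and rose in 1, ENSG00000271581 (0.84, adjusted p = 3.93e-15). With library totals 4 of the 9 falls still passed: SLC25A5-AS1 (-0.34), TMED2-DT (-0.22), ENO3 (-0.20) and PTMA (-0.54). SLC25A5-AS1 had 4215 ± 120.2 CPM in controls and 2926 ± 115.6 with the SOX9 sgRNA (SD, n = 3), and its groups did not overlap. The GDF9 call was also lost without control library 2 (-0.26) or SOX9 sgRNA library 1 (-0.25).

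At the other end were 6 pairs with at least 300 counts in all and the most even split. SRCAP, a chromatin-remodelling ATPase, had 571 counts and its antisense ENSG00000261840 had 608. The coding pairs SLC9A5/FHOD1, a sodium-proton exchanger and a formin, had 454 and 473, METTL25B/ISG20L2 361 and 375, and TBC1D17/AKT1S1 167 and 138. NDST1, an enzyme of heparan sulfate synthesis, had 304 and NDST1-AS1 355, and LPP, a focal adhesion gene, had 234 against 240 for LPP-AS2. None of these 12 genes was called, and their ratio changes ran from -0.71 (SLC9A5/FHOD1) to 0.35 (NDST1/NDST1-AS1).

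The counts called in the role lists stand beside 6.02% of all 7959 tested genes that fell and 2.99% that rose. The lists are short, so their counts are not read as a trait of a role. Grouped by role, mitochondrial genes stood in 21 pairs. Of their 16 tested genes 0 were called, with a median log2 fold change of -0.07, and 3 of the 15 tested genes opposite them fell, SLC25A5-AS1, GDF9 and DCAF13 (-0.41). NDUFA1, a complex I subunit gene, had 526 ± 21.5 CPM in controls and 503 ± 31.8 with the SOX9 sgRNA (SD, n = 3). Of 8 genes of repair and replication 7 were tested and 2 fell, the checkpoint clamp gene RAD1 (-0.46, adjusted p = 0.000823) and its loader RAD17 (-0.45, adjusted p = 0.033). The RAD17 call was lost on leaving out any 1 library other than SOX9 sgRNA 3 (-0.36 to -0.48). C9orf43 fell by 0.30 opposite POLE3, a histone-fold subunit of DNA polymerase epsilon; that call was lost without control 2 (-0.21), SOX9 sgRNA 1 (-0.30) or SOX9 sgRNA 3 (-0.22).

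RNA-processing genes stood in 21 pairs, with 1 of 16 tested genes called, the spliceosome gene PRPF4 (-0.59; lost without SOX9 sgRNA 3, -0.52), and 2 of 14 opposite genes lower, ENSG00000255224 and ENSG00000262477 (-0.32). The last lies opposite the pseudogene HNRNPA1P7, which had 3 counts, and its call was lost without control 1 (-0.36), control 2 (-0.24), SOX9 sgRNA 1 (-0.27) or SOX9 sgRNA 2 (-0.31). In 30 pairs with genes of protein turnover 1 of 22 tested genes fell, the ubiquitin ligase gene RNF145 (-1.34), a call lost without control 1 (-1.36), control 2 (-1.19), SOX9 sgRNA 1 (-1.0) or SOX9 sgRNA 2 (-1.30). Opposite, ENSG00000267801 fell by 0.44 on the log2 scale, while its partner TRIM47 had 103 counts in controls and 70 with the SOX9 sgRNA (-0.78, adjusted p = 0.12). PSMC5, a proteasome ATPase gene, had 14, 27 and 22 against 32, 38 and 36 counts and was not called.

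In 37 pairs with transcription factor and chromatin genes 18 were tested; MED14OS, matched by its symbol but an antisense gene of the mediator subunit MED14, rose by 0.60, and the zinc finger gene ZBTB11 fell by 0.69 (adjusted p = 0.0341). The MED14OS call was lost without control 2 (0.53), control 3 (0.45), SOX9 sgRNA 2 (0.54) or SOX9 sgRNA 3 (0.51). The ZBTB11 call was lost without control 1 (-0.69), control 2 (-0.59), SOX9 sgRNA 1 (-0.61) or SOX9 sgRNA 3 (-0.72). Of 22 tested opposite genes TUBGCP2, a gamma-tubulin complex gene, fell (-0.49). Signalling, adhesion and cytoskeleton genes stood in 28 pairs with 18 tested: TUBGCP4 rose (0.68), TUBGCP2 and ITGB8 fell, and of 17 opposite genes 3 rose and 3 fell. The largest of these were FAM81A and ITGB8-AS1. Of the falls named in these lists, those of SLC25A5-AS1, ENSG00000255224, ITGB8 and ITGB8-AS1 also passed with library totals and the other named ones did not. Neither DESeq2 nor the fit without a filter on low counts called RAD17, ENSG00000262477, RNF145, MED14OS or ZBTB11, and DESeq2 did not call C9orf43. The lists were matched by symbol patterns and were not tested as sets.

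At the edge of the rule, HDAC11, a histone deacetylase gene, and HDAC11-AS1 had 58 and 2 counts, just inside the minimum of 60, and RASSF8 and RASSF8-AS1 had 3 and 55, just outside it.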

How the data were processed

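The members and the role lists were chosen with earlier results of these data known. The deposited values are counts of fragments per gene, whole numbers, not normalized, in 1 table for each library. The submitters' processing notes name STAR 2.7.10a, featureCounts, Subread 1.6.2 and the build GRCh37 (hg19). Per the file headers, paired fragments over Ensembl exons were counted with strand setting 1, and a fragment counted for every gene it overlapped. Per the labels, the libraries were made with version 2 of the SMARTer Stranded Pico Input kit, which is usually counted with the reverse strand setting. Exon overlaps were found with bedtools 2.31.1. Symbols were found for 38994 of 57209 identifiers and biotypes (GENCODE, another build, used for no coordinates) for 51789; genes with none, present in 14 pairs, were called noncoding.

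Changes were tested with edgeR 4.0.16 in R 4.3.3 (filterByExpr, TMM factors, robust quasi-likelihood fit, prior count 0.125, Benjamini-Hochberg over all 7959 genes tested, threshold 0.05); CPM uses the same factors. The ratio test was the same fit with 2 columns per library, 1 for each strand, library terms and a strand by group term, adjusted over 1961 pairs. It was tested on simulated data, with changes put into pairs that had at least 60 counts on each gene. It found 12% of 2-fold, 62% of 3-fold, 86% of 4-fold and 98% of 8-fold changes, and called 6 of 1761 unchanged pairs. Pairs with fewer counts on a gene were given no change, so how many changes it finds there was not tested. All pairs were simulated with 1 fixed dispersion of 0.05, which was not estimated from these libraries. The rates found hold for that setting only. Shares have exact Clopper-Pearson 95% intervals, which cover counting error only, since fragments were not counted by molecular identifiers.

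Named pairs were the 10 with the most counts; the pairs of the 10 largest rises and 10 largest falls past the threshold among genes whose groups were apart; up to 8 past the ratio threshold; the 6 most even with at least 300 counts; up to 3 of each role list with the most counts; and those at the count minimum. Alternatives were other scaling, DESeq2 1.42.0, other filters, other pair minimums and overlaps, leaving out libraries and a replicate block. Shares per kb of exon were added after seeing the data. Same-numbered libraries of the groups did not deviate together. A few genes are not reported here.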

Additional observations from a re-analysis of the deposited data

How the results depend on the processing

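The count of members that rose was 19. It became 50 with library totals, 10 with DESeq2, 12 with no filter on low counts and 12 to 16 without 1 library each. The count of members that fell was 78. It became 32 with library totals, 54 with DESeq2, 66 with no filter on low counts and 57 to 71 without 1 library each. The shares called among all genes under these settings are not given here. The 3 pairs past the ratio threshold became 1 when at least 10 counts were asked on each strand and 0 to 3 without 1 library each, with 0 without SOX9 sgRNA library 3, 1 without SOX9 sgRNA library 1 and 1 without control library 3. The labels give both groups the numbers 1 to 3, but same-numbered libraries did not deviate together (correlations -0.003, 0.019 and -0.011). With a replicate block 15 members rose, 67 fell and 3 pairs passed the ratio test. The median share on the coding gene in control and SOX9 sgRNA libraries was 32.7% and 34.4% at a pair minimum of 30 counts, 16.7% and 18.6% at 120, 19.4% and 19.2% over summed counts, and 7.13% and 7.83% per kb of exon; it was lower in controls in each but the summed counts. The share of the gene with more counts was 89.9% in controls at 30, 90.0% and 88.9% at 120, 90.7% and 89.7% over summed counts, and 92.9% and 91.8% per kb. Without 1 library each, the coding share was 24.7% to 25.8% in controls and 27.0% to 30.1% with the SOX9 sgRNA, and that of the larger gene 88.8% to 89.4% and 88.0% to 88.6%. For the named genes and ratios, 842 alternative values kept their side of the threshold. Any change of sign between uncalled values is included in these. Of the others, 84 kept direction but lost the call, 7 gained one, and 0 reversed with a call in either fit. The cause of these moves was not tested. At totals of 776125 to 1018854 counts per library 432 member genes had too few counts to test.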
